A study of Mus musculus with 8 samples.

Results

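The cytosolic ribosomal protein genes encode the proteins of the 40S and 60S subunits of the ribosome. They were taken from 8 gene expression tables of mouse pluripotent stem cells by symbol: every gene named Rpl, Rps, Rplp or Rpsa in the standard form, with the close relative Rpl22l1 added. This gave 83 genes among 22006 named genes or gene units, 32 of the small subunit and 51 of the large subunit with its stalk. Each of the 83 had 1 entry in each of the 8 tables, and all 83 passed the filter on low values. Of these, 7 are paralogues, that is, second copies of a ribosomal protein gene elsewhere in the genome (Rps4l, Rpl39l, Rpl10l, Rpl36al, Rpl22l1, Rps27l and Rpl3l), and they are set against the other 76.

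The study sequenced RNA from 4 groups of cells with 2 libraries each. CDGC1 and CDGC6 are pluripotent lines grown out of early teratoma cells of the newborn testis, with the genotype Dnd1ter/ter and an Oct4deltaPE-GFP reporter on the 129Sv strain, at passages 15 to 18. The control was the ES cell line E14tg2a, which is wild type for Dnd1, of strain 129/Ola, at passages 10 to 12. The Dnd1-KD cells are ES cells with the same strain, passages and genotype label as the control, in which Dnd1 was knocked down by an agent that the labels do not name. Dnd1 encodes an RNA-binding protein needed for germ cell survival. Every culture was kept in serum with LIF. CDGC1 and CDGC6 are each a single line, so a difference between a line and the control cannot be told apart from differences of strain background, passage or derivation. The 2 lines share strain, genotype and passage range. The labels leave it unsaid if paired libraries of a group are from different cultures, and the p-values therefore cover library-to-library spread alone, possibly technical.

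Ribosomal protein genes are among the most highly expressed genes of growing cells, and their products are needed in near equal amounts in each ribosome. Their mRNAs are known for a 5′ terminal oligopyrimidine (TOP) tract, a C at the first base followed by a run of C and T, through which mTOR and the RNA-binding protein LARP1 control their translation. Many of their introns carry small nucleolar RNAs (snoRNAs), which guide the modification of ribosomal RNA. Several genes, among them X-linked ones, have retrocopies on autosomes that are known for expression in male germ cells, where the X chromosome is silenced in meiosis.

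The sequences at the annotated starts were searched for the tract. In the RefSeq promoter table (GRCm38.p6, the assembly also called mm10) 62 of the 83 genes were matched. A tract, searched on the sense strand as a C within 2 bases of the annotated start with at least 4 further C or T, was present in 21 of the 62 (33.9%), against 10.6% of the 27025 genes in that table. With the C exactly at the start the shares were 21% and 3.01%. A gene with several annotated starts was counted if any of them had a tract. Among the paralogues 1 of 6 had such a tract (Rps27l) and among the other members 20 of 56. Another annotated start of Rps27l, at chr9:66946413, had none. These counts hold for the annotated starts, and the starts used in these cells were not determined. The start with the tract in Rps27l is at chr9:66946086, while its entry in the control libraries starts at 66946118. In Rpl22l1, which was not counted, a C followed by a run of C and T lies just outside the searched bases. A gene without a tract here may therefore have one at another start. The windows below run from 5 bases before the annotated start to 20 bases from it, 5′ to 3′, and the capitals mark the tract. They come from chr4:86857348-86857372 (minus strand), chr3:90213629-90213653 (minus strand) and chr9:66946081-66946105 (plus strand).
Rps6: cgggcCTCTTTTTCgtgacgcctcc
Rps27: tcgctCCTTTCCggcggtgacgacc
Rps27l: ccgccgCCTCTatcccggaagttgc

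The paralogues and their parent genes differ in sequence. Over the coding sequence, Rpl39l (GENCODE vM21, chr16:10170226-10174911, plus strand) and Rpl39 (chrX:37082520-37085402, minus strand) were 85.3% identical, with 23 mismatches in 156 aligned bases and a longest identical run of 38 bases. Both encode 51 residues. The pair is shown because Rpl39l is one of the members that the results below turn on. Capitals mark the mismatches.
Rpl39l: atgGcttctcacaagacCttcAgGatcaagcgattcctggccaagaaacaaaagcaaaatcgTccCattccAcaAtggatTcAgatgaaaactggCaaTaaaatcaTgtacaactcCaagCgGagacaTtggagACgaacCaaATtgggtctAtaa
Rpl39: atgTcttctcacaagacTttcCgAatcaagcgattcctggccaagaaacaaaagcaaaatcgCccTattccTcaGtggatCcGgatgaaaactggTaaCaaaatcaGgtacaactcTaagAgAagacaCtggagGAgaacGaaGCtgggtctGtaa
Identity was 84.8% for Rpl10l and Rpl10, 87.9% for Rpl36al and Rpl36a, 76.1% for Rps27l and Rps27, 73.3% for Rpl3l and Rpl3, and 68.2% for Rpl22l1 and Rpl22. Rps4l (chr6:148354656-148355598, plus strand) is annotated as a transcribed processed pseudogene. Its longest open reading frame of 262 codons was 79.8% identical to the coding sequence of Rps4x, with a longest identical run of 35 bases.

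All 7 pluripotency markers checked (Pou5f1, Sox2, Nanog, Sall4, Lin28a, Utf1, Tdgf1) were at 1 FPKM or more in both libraries of every group. FPKM counts fragments per kilobase of transcript and per total of mapped fragments. The tables give no counts, and an estimate from the intervals they list gave 10.7 to 18.0 M fragments per library. Unnamed entries took up 76.8% to 85.6% of the FPKM total. Dnd1 shares an entry with Hars in some tables, so its value does not check the knockdown. E14tg2a is known to lack Hprt, and Hprt was at 0.359 to 0.642 FPKM in the control and Dnd1-KD libraries and at 121 to 133 in the derived lines.

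Rps4l, Rpl39l and Rpl10l, copies with parents on the X chromosome, were nearly absent from CDGC1. Rps4l was at 321 and 330.1 FPKM in control, 237 and 229 in Dnd1-KD, 0.238 and 0.346 in CDGC1 and 306 and 356 in CDGC6. The ratio of the control mean to the CDGC1 mean was 1110, and over single libraries it lay between 927 and 1380. The log2 difference of FPKM + 1, the scale of all differences below, was -7.98 ± 0.089 (SE), adjusted p = 5.1e-07 against control and -8.00 ± 0.089 (SE), adjusted p = 4.9e-07 against CDGC6. Rpl39l was at 18.2 and 17.4 FPKM in control, 13.8 and 12.2 in Dnd1-KD, 0.175 and 0.0707 in CDGC1 and 13.6 and 18.3 in CDGC6. It differed by -4.06 ± 0.15 (SE), adjusted p = 1.2e-05 from control and by -3.90 ± 0.15 (SE), adjusted p = 1.9e-05 from CDGC6. Rpl10l (chr12:66283379-66284401, minus strand), a copy with a single exon, was at 22.1 and 22.9 FPKM in control, 19.96 and 19.1 in Dnd1-KD, 0.0429 and 0 in CDGC1 and 12.4 and 17.8 in CDGC6. Its differences were -4.52 ± 0.16 (SE), adjusted p = 1.1e-05 and -3.96 ± 0.16 (SE), adjusted p = 2.1e-05. In all 3 genes both CDGC1 libraries lay far below the other 6, with no overlap. The intervals of the files for the CDGC1 values reached no higher than 0.576 FPKM for Rps4l, 0.378 for Rpl39l and 0.129 for Rpl10l. No entry without a gene name overlapped these 3 genes in any table. The size of a log2 difference at levels this low depends on the pseudocount: over all alternatives run, the difference from control lay between -6.37 and -2.15 for Rpl39l and between -7.56 and -2.45 for Rpl10l.

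None of their parent genes was called lower in CDGC1 than in control. Both CDGC1 libraries of Rps4x were still below both control libraries, with a difference of -0.09. Rps4x was at 1848 and 1888 FPKM in control, 1626 and 1514 in Dnd1-KD, 1717 and 1797 in CDGC1 and 2243 and 2272 in CDGC6, and Rpl10 at 1469 and 1534 FPKM in control, 1498 and 1327 in Dnd1-KD, 1570.3 and 1755 in CDGC1 and 1765 and 1787 in CDGC6. Neither passed the test in CDGC1 against control (adjusted p = 0.31 and adjusted p = 0.22). Rps4x was lower in CDGC1 than in CDGC6 (-0.36, adjusted p = 0.0059), and in Dnd1-KD it fell (-0.25, adjusted p = 0.03) beside Rps4l. Rpl39 was at 1399 and 1453 FPKM in control, 1165 and 1196 in Dnd1-KD, 1698 and 1825 in CDGC1 and 1624 and 1858 in CDGC6 and rose in CDGC1 by 0.30 ± 0.085 (SE), adjusted p = 0.026. In the first CDGC1 library an entry without a gene name with 429 FPKM also overlapped Rps4x. Such an entry overlapped Rpl10 in every table but that of the second CDGC1 library, with values from 848 FPKM to 3981 in the second control library and 15218 in the first CDGC6 library. How these entries bear on the level of Rpl10, and so on the percentages of Rpl10 given next, was not tested. As a percentage of the parent, Rps4l was at 17.4 ± 0.094 (SD, n = 2) in control, 14.8 ± 0.37 in Dnd1-KD, 0.0166 ± 0.0038 in CDGC1 and 14.7 ± 1.4 in CDGC6. Rpl39l was at 1.25%, 1.1%, 0.0071% and 0.912% of Rpl39 in the same order, and Rpl10l at 1.5%, 1.39%, 0.00137% and 0.849% of Rpl10.

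The same libraries differed in genes of the male germ line. Summed FPKM of 7 spermatogenic markers (Sycp3, Stra8, Prm1, Prm2, Tnp1, Acrv1, Ddx4) was 0.0137 to 0.0447 in CDGC1, against 56.2 to 59.9 in control, 109.0 to 109.6 in Dnd1-KD and 25.6 to 35.0 in CDGC6. Only 2 of the 7, Sycp3 and Ddx4, were at 1 FPKM or more in both libraries of control, Dnd1-KD or CDGC6, so the sums rest mostly on them. Sycp3, a protein of the meiotic chromosome axis, was listed at 0 in both CDGC1 libraries, and at 43.5 and 40.1 in control, 86.5 and 86.0 in Dnd1-KD and 15.7 and 22.9 in CDGC6. Ddx4, a germ cell RNA helicase, was at 0.0137 and 0.0221 in CDGC1 and at 9.62 to 22.6 in the other 6 libraries. The protamine and transition protein genes Prm2 and Tnp1 were listed at 0 in both libraries of all 4 groups. Other marker lists differed between the groups too. Summed testis somatic markers were at 4.59 to 7.72 FPKM in CDGC1 and at 1.83 to 2.78 in the other 6 libraries. Of the 6 genes summed, only 1 was at 1 FPKM or more in both libraries of a group, in each group. Summed fibroblast or feeder markers were at 33.6 to 35.1 in CDGC1, 24.7 to 32.3 in CDGC6, 10.0 to 10.3 in Dnd1-KD and 7.0 to 7.66 in control. The fibroblast or feeder sum was thus higher in both derived lines, each with 5 of 8 genes at 1 FPKM or more in both libraries. Summed leukocyte markers were at 0.00707 to 0.133 in CDGC1 and 0.299 to 1.09 in the others. None of the 3 leukocyte genes summed was at 1 FPKM or more in both libraries of any group. The part of these genes in the result for the paralogues was not tested. In RNA of whole cultures, fewer cells that express a gene and less RNA per cell cannot be told apart.

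The stretches of 120 bases before the starts of Rpl39l (chr16:10170108-10170227, plus strand) and Rpl10l (chr12:66284402-66284521, minus strand) are shown because both copies were nearly absent from CDGC1. In CDGC6 against control they were less alike, at -0.57 for Rpl10l and -0.16 for Rpl39l, and neither passed (adjusted p = 0.055 and 0.48). Capitals mark CG dinucleotides, which are sites of DNA methylation in mammals.
Rpl39l: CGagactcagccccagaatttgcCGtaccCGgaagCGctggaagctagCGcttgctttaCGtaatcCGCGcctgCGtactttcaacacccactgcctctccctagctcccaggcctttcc
Rpl10l: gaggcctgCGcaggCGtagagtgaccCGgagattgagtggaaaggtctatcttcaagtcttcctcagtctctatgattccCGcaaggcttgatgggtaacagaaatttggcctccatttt
Over 250 bases before the start, Rpl39l had 12 CG and Rpl10l 8, where the median was 6 over all genes of the table and 17.75 over the 62 members matched. Methylation was not measured.

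Of the other 4 paralogues, Rpl36al, Rpl22l1 and Rps27l did not share this pattern, and Rpl3l was near 0 in most libraries. Rpl36al, whose parent Rpl36a is also on the X chromosome, was at 568 and 596 FPKM in control, 459 and 498 in Dnd1-KD, 650.4 and 708 in CDGC1 and 645 and 713 in CDGC6. It fell in Dnd1-KD (-0.28 ± 0.084 (SE), adjusted p = 0.042), and Rpl36a did too (-0.34, adjusted p = 0.037). Rpl22l1, which its parent Rpl22 is known to hold down, was at 288 and 326 FPKM in control, 231 and 255 in Dnd1-KD, 286 and 391 in CDGC1 and 372 and 400.3 in CDGC6 and passed no test. It exceeded Rpl22 in every library, at 160% ± 6.8 (SD, n = 2) of Rpl22 in control, 155% ± 8.8 in Dnd1-KD, 178% ± 19.1 in CDGC1 and 155% ± 1.4 in CDGC6. Rpl22 was at 186 and 198 FPKM in control, 155 and 158 in Dnd1-KD, 175 and 204 in CDGC1 and 243 and 257 in CDGC6. Rpl22 fell in Dnd1-KD (-0.29, adjusted p = 0.046) and rose in CDGC6 (0.38, adjusted p = 0.036). Rps27l, a known target of p53, was at 628 and 579 FPKM in control, 518 and 512 in Dnd1-KD, 761 and 675 in CDGC1 and 579.8 and 634 in CDGC6 and passed no test, with adjusted p = 0.053 in CDGC1 against control. Rpl3l, known as the form of striated muscle, was at 0.183 and 0.278 FPKM in Dnd1-KD, 0.0301 and 0.0485 in CDGC1 and 0.360 and 0.105 in CDGC6. In control its values were 1.30 and, where its entry was joined with Msrb1, 39.1. Both CDGC1 libraries were thus the lowest, at levels where all but the control libraries were under 1 FPKM. Because of the joining, it was tested as a unit with Msrb1 and did not pass.

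**Figure D1:**
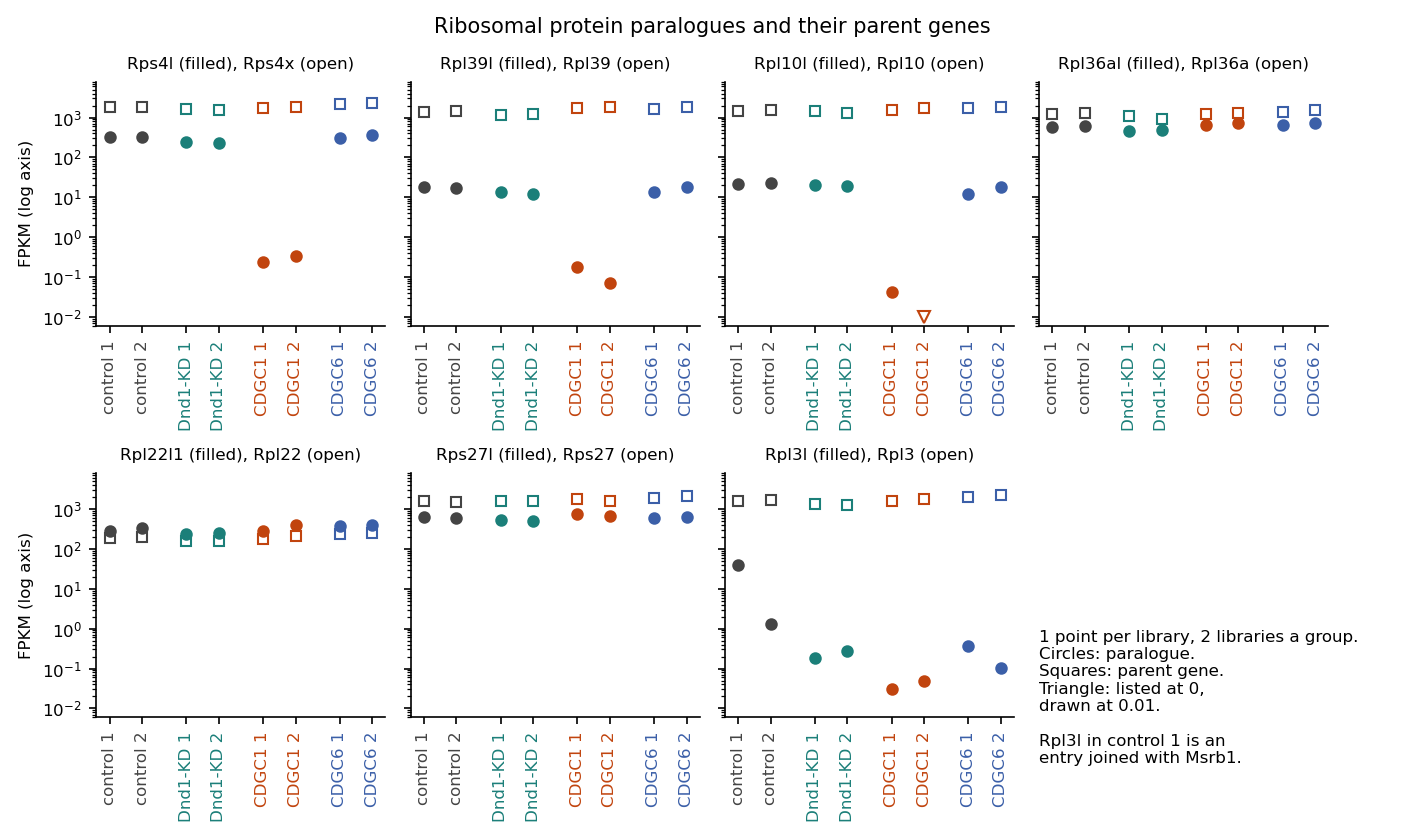
FPKM of the 7 paralogues (filled circles) and their parent genes (open squares) in each of the 8 libraries, on a log axis, with an open triangle where a gene is listed at 0. Rps4l, Rpl39l and Rpl10l lie below 0.4 FPKM in both CDGC1 libraries and above 12 FPKM in the other 6, while Rps4x, Rpl39 and Rpl10 stay above 1100 FPKM in every library.

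As a group the 83 genes held between 22.0% and 26.2% of the FPKM of named genes, with the highest share in CDGC6. Their summed FPKM as a percentage of the FPKM of all named genes, small RNA genes left out, was 23.0 and 23.4 in control, 22.0 and 22.2 in Dnd1-KD, 22.4 and 23.6 in CDGC1 and 25.1 and 26.2 in CDGC6. The 2 CDGC6 libraries were above the other 6 and the 2 Dnd1-KD libraries below them. This order ended with all entries in the total, named or not, where the first CDGC6 library (3.20%) was below the second CDGC1 library (3.41%) and the first Dnd1-KD library (2.98%) above the first control library (2.80%). With 2 libraries against 2 an exact permutation test cannot go below p = 0.333, so no test of the share was made. The group means were 23.2% ± 0.24 (SD, n = 2) in control, 22.1% ± 0.13 in Dnd1-KD, 23.0% ± 0.87 in CDGC1 and 25.7% ± 0.81 in CDGC6. The paralogues made up 1.32% to 1.52% of the summed FPKM of the 83. Between 61 and 65 of the 100 highest units of each library were ribosomal protein genes.

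**Figure D2:**
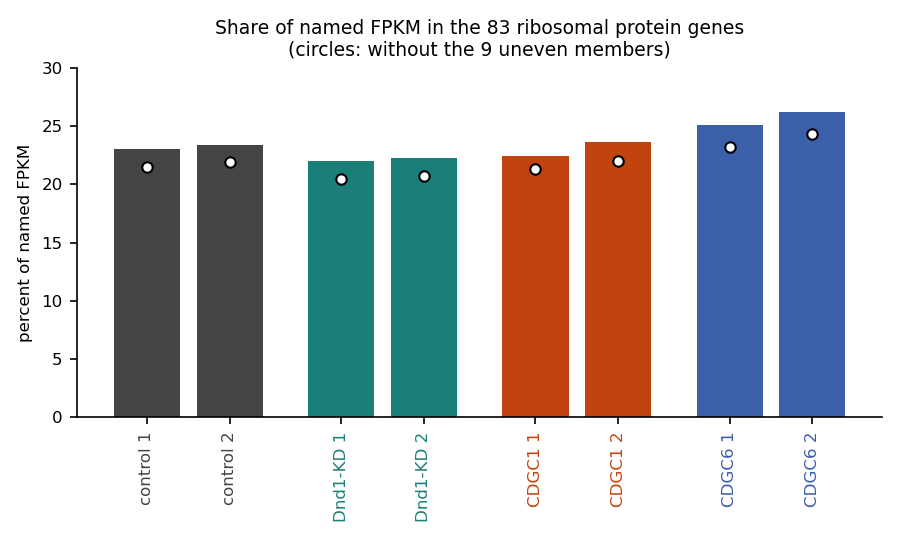
Summed FPKM of the 83 genes as a percentage of the FPKM of all named genes in each library (bars, axis from 0), with circles for the share after 9 members that differ between the libraries of a group are left out of both sums. CDGC6 stands at 25.1% and 26.2%, and the other 6 libraries lie between 22.0% and 23.6%.

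Within the group, levels spread widely. Of the 76 members that are no paralogues, 72 had a mean of at least 500 FPKM over the 8 libraries. The highest means were those of Rpl41, which encodes the smallest ribosomal protein (3136 and 3218 FPKM in control, 2453 and 2452 in Dnd1-KD, 3496 and 4161 in CDGC1 and 3904 and 4127 in CDGC6), Rps2 (3055 and 3188 FPKM in control, 2866 and 2959 in Dnd1-KD, 3248 and 3549 in CDGC1 and 3406 and 3676 in CDGC6) and the stalk gene Rplp1. The lowest were those of Rpl3l, Rpl39l and Rpl10l. FPKM is scaled by length, so these levels can be set side by side, but short genes such as Rpl41 depend most on how the length of a fragment is treated.

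In Dnd1-KD cells most ribosomal protein genes were slightly lower than in control, except after quantile normalization, where 6 rose and 5 fell with a median of 0.01. Of the 83 genes, 20 fell (24.1%, where 15.5% of all 11901 tested units fell) and 1 rose (1.20%, where 20.7% of all units rose). The difference was below 0 in 74 of the 83, against 47.7% of all units, and in 60 of the 83 both Dnd1-KD libraries were below both control libraries, against 37.4% of all units. In either direction 21 were called (36.2% of all units), 3 had both Dnd1-KD libraries above both control libraries (42.2% of all units) and 9 had a difference above 0 (52.1% of all units). The median difference was -0.14 over the members and 0.02 over all units. Of the 30 small subunit members that are no paralogues the median was -0.11, and of the 46 of the large subunit and stalk -0.15. By the rule for named genes the largest falls were those of Rps15a, described below, of Rps4l (-0.48 ± 0.089 (SE), adjusted p = 0.01) and of Rps25 (1048 and 988 against 1375 and 1444 FPKM, -0.47 ± 0.086 (SE), adjusted p = 0.0097). Rpl41 (-0.37, adjusted p = 0.028), Rpl7a (-0.41, adjusted p = 0.032) and Rpl3 (-0.31, adjusted p = 0.035) fell too. Rpl31 was the member that rose, at 1008 and 2033 against 599.8 and 647 FPKM (1.20 ± 0.30 (SE), adjusted p = 0.026), and its 2 Dnd1-KD libraries differed by a factor of 2.02. The summed level of the 7 pluripotency markers was 879 to 1072 FPKM in Dnd1-KD and 1841 to 1866 in control, and its part in these differences was not tested. Without 1 library the count called in either direction dropped from 21 to between 2 and 7, and after scaling each library to its named FPKM 12 fell and 1 rose.

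In CDGC6 the members were shifted upwards together, most of them by an amount that did not pass the test one by one. Of the 83 genes, 10 rose (12.0%, where 8.43% of all units rose) and 1 fell (1.20%, where 10.2% of all units fell). The difference was above 0 in 77 of the 83, against 48.4% of all units. In 69 of the 83 both CDGC6 libraries were above both control libraries, against 34% of all units, and in 2 both were below (37.3% of all units). In either direction 11 were called, against 18.6% of all units, and 6 had a difference below 0 (51.4% of all units). The median difference was 0.23 over the members, with quartiles of 0.18 and 0.29, and -0.01 over all units. Leaving out the paralogues, 71 and 73 of the 76 members were above the control mean in the first and second CDGC6 library, with medians of 0.17 and 0.30. Among the 3 largest rises were those of Rpl22 (0.38 ± 0.089 (SE), adjusted p = 0.036) and Rpl3, which shapes the peptidyl transferase centre (2000.3 and 2214 against 1620.2 and 1641 FPKM, 0.37 ± 0.087 (SE), adjusted p = 0.036). Rps15a was the gene that fell. The summed pluripotency markers were at 2240 to 2511 FPKM in CDGC6 against 1841 to 1866 in control, and those of fibroblast or feeder cells (8 genes, among them Col1a1 and Thy1, of which 5 were at 1 FPKM or more in both CDGC6 libraries and 2 in both control libraries, with Lum at 0 in CDGC6) at 24.7 to 32.3 against 7.0 to 7.66. Their part in the result was not tested. The number called rested on single libraries: it was 1 without either control library, 3 without the second CDGC6 library and 13 without the first. Quantile normalization left 3 rises and 1 fall with a median of 0.03, and scaling to the named FPKM 6 rises and 2 falls with a median of 0.14.

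In CDGC1 the members were centred on the control level. Of the 83 genes, 7 rose (8.43%, where 23.5% of all units rose) and 6 fell (7.23%, where 26.9% of all units fell). In either direction 13 were called, against 50.5% of all units. The difference was above 0 in 39 and below 0 in 44 (47.2% and 52.6% of all units). Both CDGC1 libraries were above both control libraries in 23 members (37.2% of all units) and below them in 16 (41.5% of all units). The median difference was -0.01 over the members and -0.03 over all units. Apart from the 3 paralogues and Rps15a, the falls were those of Rps18 (-0.34, adjusted p = 0.011) and Rpl10a (-0.31, adjusted p = 0.018), which are named because they complete the count. The largest rises were those of Rpl35, Rps27a and Rpl7a. Rpl35, a protein near the exit of the peptide tunnel, was at 2172 and 2076 FPKM in control, 1788 and 1908 in Dnd1-KD, 4293 and 5299 in CDGC1 and 2269 and 2509.6 in CDGC6, so both CDGC1 libraries were well above the other 6. Its difference was 1.17 ± 0.12 (SE), adjusted p = 0.00044. Rps27a, made as a fusion with ubiquitin, was at 1526 and 1553 FPKM in control, 1465 and 1515 in Dnd1-KD, 2197 and 2361 in CDGC1 and 1758 and 1965 in CDGC6 and rose by 0.56 ± 0.079 (SE), adjusted p = 0.0017. Rpl7a was at 2062 and 1831 FPKM in control, 1530.2 and 1406 in Dnd1-KD, 2646 and 2678 in CDGC1 and 2115 and 2520.0 in CDGC6 and rose by 0.45 ± 0.11 (SE), adjusted p = 0.015. Without either control library 7 members were called in place of 13.

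Set directly against each other, the 2 derived lines differed mostly in 1 direction, with a smaller share of the members called than of all units. Of the 83 genes, 32 were lower in CDGC1 than in CDGC6 (38.6%, where 24.1% of all units were lower) and 2 were higher (2.41%, where 23% of all units were higher). The median difference was -0.25 over the members and -0.02 over all units, and it was below 0 in 74 of the 83 and above 0 in 9, against 51.5% and 48.3% of all units. In either direction 34 were called (41%), against 47.1% of all units. The libraries did not overlap in 56 members that were lower in CDGC1 (37.4% of all units) and in 5 that were higher (35.3% of all units). Small and large subunit shared the shift, with medians of -0.26 and -0.25 after the paralogues were left out. The largest falls were those of Rps4l, Rpl10l and Rpl39l given above, and the largest outside the paralogues that passed was that of Rpl27 (868 and 1000.1 against 1242 and 2123 FPKM, -0.80 ± 0.25 (SE), adjusted p = 0.039), whose CDGC6 libraries differed by a factor of 1.71. Rpl35 (1.0 ± 0.12 (SE), adjusted p = 0.00098) and Rps27a (0.29 ± 0.079 (SE), adjusted p = 0.025) were the 2 that were higher. Fitted on these 2 groups alone, 4 members were called in place of 34. The count was 18 without the first CDGC1 library and 14 without the second CDGC6 library, and quantile normalization gave 5 higher and 12 lower with a median of -0.12.

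**Figure D3:**
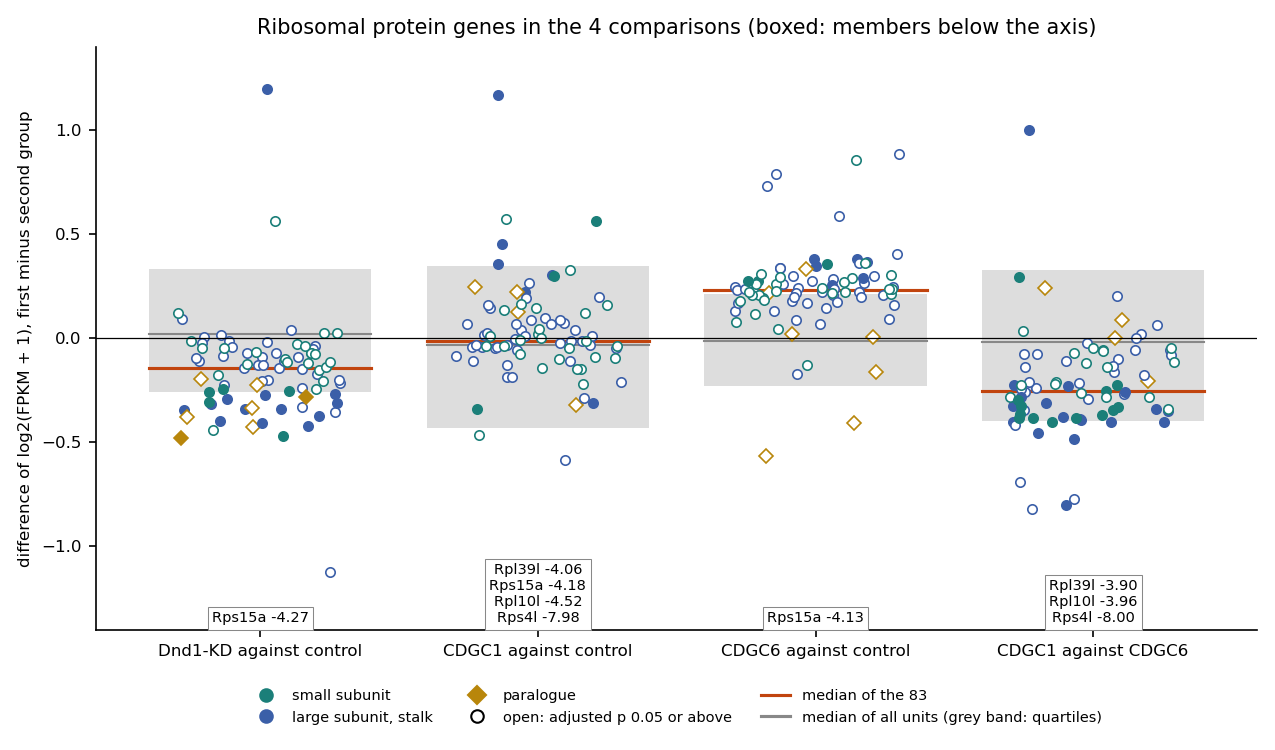
Differences of log2(FPKM + 1) for the 83 genes in the 4 comparisons, with 1 point per gene (diamonds are paralogues, filled points have an adjusted p below 0.05), the median of the 83 as a thick line, and the quartiles of all tested units as a grey band. The members sit below 0 in Dnd1-KD (median -0.14, but 0.01 after quantile normalization), above it in CDGC6 (0.23, but 0.03 after it), around it in CDGC1 (-0.01) and below it for CDGC1 against CDGC6 (-0.25, but -0.12 after it), and the boxes name members below the axis.

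The shift was shared by most members of a library rather than carried by a few. Relative to the control mean, the 76 members without the paralogues had medians of -0.14 and -0.15 in the Dnd1-KD libraries, where 8 and 12 of them were above the control mean. In the CDGC1 libraries the medians were -0.06 and 0.06, with 29 and 50 above it, so the 2 libraries of CDGC1 lay on either side of the control.

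**Figure D4:**
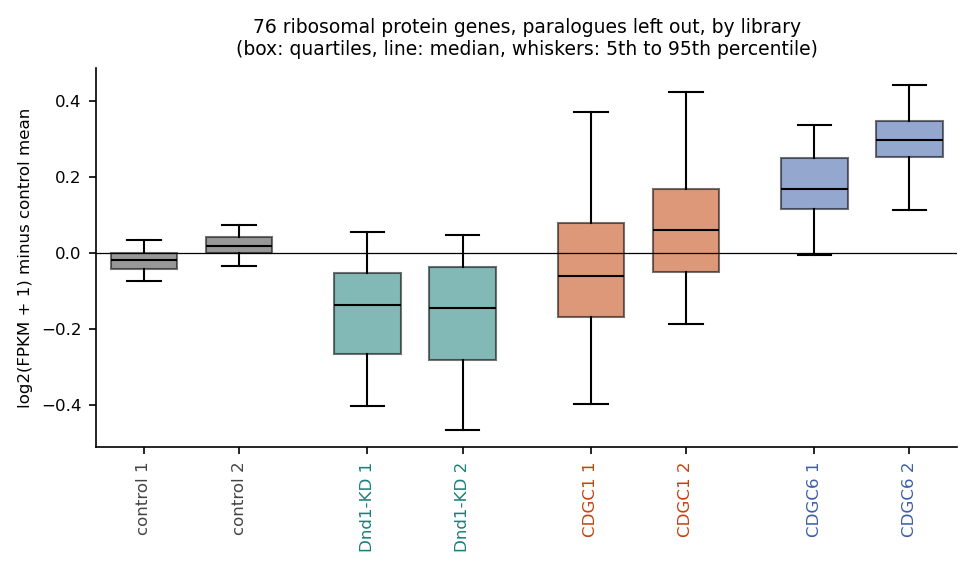
Difference of log2(FPKM + 1) from the mean of the 2 control libraries for the 76 members that are no paralogues, by library (box, quartiles; line, median; whiskers, 5th to 95th percentile). Both CDGC6 boxes lie above 0 and both Dnd1-KD boxes below it, and the CDGC1 boxes straddle it. The values are FPKM as given, without quantile normalization.

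The members with a special place in the ribosome gave a mixed picture. The stalk proteins Rplp0, Rplp1 and Rplp2 bind elongation factors. Rplp0 was at 2172 and 2099 FPKM in control, 2132 and 2091 in Dnd1-KD, 2250.5 and 2231 in CDGC1 and 2162 and 2309 in CDGC6 and passed no test. Rplp1 was at 3052 and 3078 FPKM in control, 2981 and 2929 in Dnd1-KD, 3072 and 2874 in CDGC1 and 3428 and 3806 in CDGC6 and Rplp2 at 1879 and 1698 FPKM in control, 1856 and 1827 in Dnd1-KD, 1354 and 1569 in CDGC1 and 1906 and 2116 in CDGC6. Both were lower in CDGC1 than in CDGC6 (-0.28, adjusted p = 0.027, and -0.46, adjusted p = 0.012). Rps6, the substrate of the S6 kinases, was at 1198 and 1271 FPKM in control, 1131 and 1212 in Dnd1-KD, 1131 and 1280.0 in CDGC1 and 1427 and 1532 in CDGC6, with -0.30 for CDGC1 against CDGC6 (adjusted p = 0.034) as its only call. Rpsa, which also serves as a laminin receptor, was at 1055 and 1068 FPKM in control, 1028 and 1042 in Dnd1-KD, 1030.4 and 2428 in CDGC1 and 2813 and 1315 in CDGC6. It passed no test, and the higher library was 2.36 times the lower in CDGC1 and 2.14 times in CDGC6.

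Rpl5 and Rpl11 bind the 5S RNA and, when free of ribosomes, the p53 inhibitor Mdm2. Rpl5 was at 737 and 738 FPKM in control, 695 and 708 in Dnd1-KD, 776 and 772 in CDGC1 and 888 and 918 in CDGC6, with close agreement within each group. It rose in CDGC6 (0.29 ± 0.054 (SE), adjusted p = 0.018) and was lower in CDGC1 than in CDGC6 (-0.22, adjusted p = 0.017). Rpl11 was at 1957 and 2173 FPKM in control, 1578 and 1653 in Dnd1-KD, 1834 and 2346 in CDGC1 and 2603 and 2859 in CDGC6 and passed for CDGC1 against CDGC6 alone (-0.39, adjusted p = 0.048). Of 8 members linked to the p53 checkpoint, 1 rose in CDGC6 (Rpl5) and 3 were lower in CDGC1 than in CDGC6 (Rpl5, Rpl11 and Rps7), where the shares of all units were 8.43% and 24.1%. Rps19, the gene most often mutated in Diamond-Blackfan anaemia, a failure of red cell production, was at 1408 and 1529.6 FPKM in control, 1497 and 1699.7 in Dnd1-KD, 1239.6 and 1844 in CDGC1 and 1499 and 1685 in CDGC6 and passed no test. Of 14 genes of that disease among the members, Rpl5 rose in CDGC6, and 5 were lower in CDGC1 than in CDGC6: Rpl5, Rpl11, Rpl27, Rps7 (-0.32, adjusted p = 0.012) and Rps28 (-0.38, adjusted p = 0.019). These 1 and 5 of 14 stand beside the same 8.43% and 24.1% of all units. Of the 83 members, which include both lists, 12% rose in CDGC6 and 38.6% were lower in CDGC1 than in CDGC6. The counts of both lists were near these shares of the members.

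Rps15a gave the largest difference outside the paralogues, and it set the control apart from every other group. It was at 1857 and 1828 FPKM in control, 94.4 and 94.5 in Dnd1-KD, 93.7 and 109 in CDGC1 and 91.1 and 119 in CDGC6. Against control it differed by -4.27 ± 0.13 (SE), adjusted p = 1.7e-05 in Dnd1-KD, by -4.18 in CDGC1 and by -4.13 in CDGC6, while CDGC1 and CDGC6 did not differ by the test (adjusted p = 0.81). All 3 differences rest on the same 2 control libraries. The entry for Rps15a starts at position 118104376 of chromosome 7 in every table, but ends at 118116191 and 118116189 in the control tables, at 118116208 in the second CDGC1 table and at 118116147 in the other 5. The entries of 2 annotated copies, Rps15a-ps4 and Rps15a-ps6, were at 91.2 and 93.3 and at 113 and 116 FPKM in control, and between 85.5 and 103 and between 112 and 177 in the other libraries. Whether the assembled bounds take part in the difference was not tested.

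Uneven values within a group were found in 9 of the 76 members, where 1 library was more than 1.5 times the other in at least 1 group: Rpsa, Rpl13a, Rpl23, Rpl27, Rpl27a, Rpl31, Rpl37a, Rps24 and Rps3. The bounds of the entry differed between libraries in all 9, as they did in 27 of the 83 members. Rpl13a, which hosts 4 snoRNAs, was at 1465 and 1532 FPKM in control, 1462 and 1458 in Dnd1-KD, 944 and 1841 in CDGC1 and 1431 and 3537 in CDGC6. Rpl37a was at 1984 and 2139 FPKM in control, 1328 and 671 in Dnd1-KD, 922 and 2039 in CDGC1 and 2355 and 1421 in CDGC6, with libraries that overlap between groups. Of the 9, 5 host a snoRNA, and 29 of the 83 members do. The median ratio of the higher to the lower library was 1.04 for hosts and 1.04 for the others in control, and 1.09 and 1.1 in CDGC6, with hosts first. Of the 56 members with the same bounds in all tables, 16 fell in Dnd1-KD (15.5% of all units), 6 rose and 3 fell in CDGC1 (23.5% and 26.9% of all units), 7 rose in CDGC6 (8.43% of all units), and 2 were higher and 24 lower in CDGC1 than in CDGC6 (23% and 24.1% of all units).

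**Figure D5:**
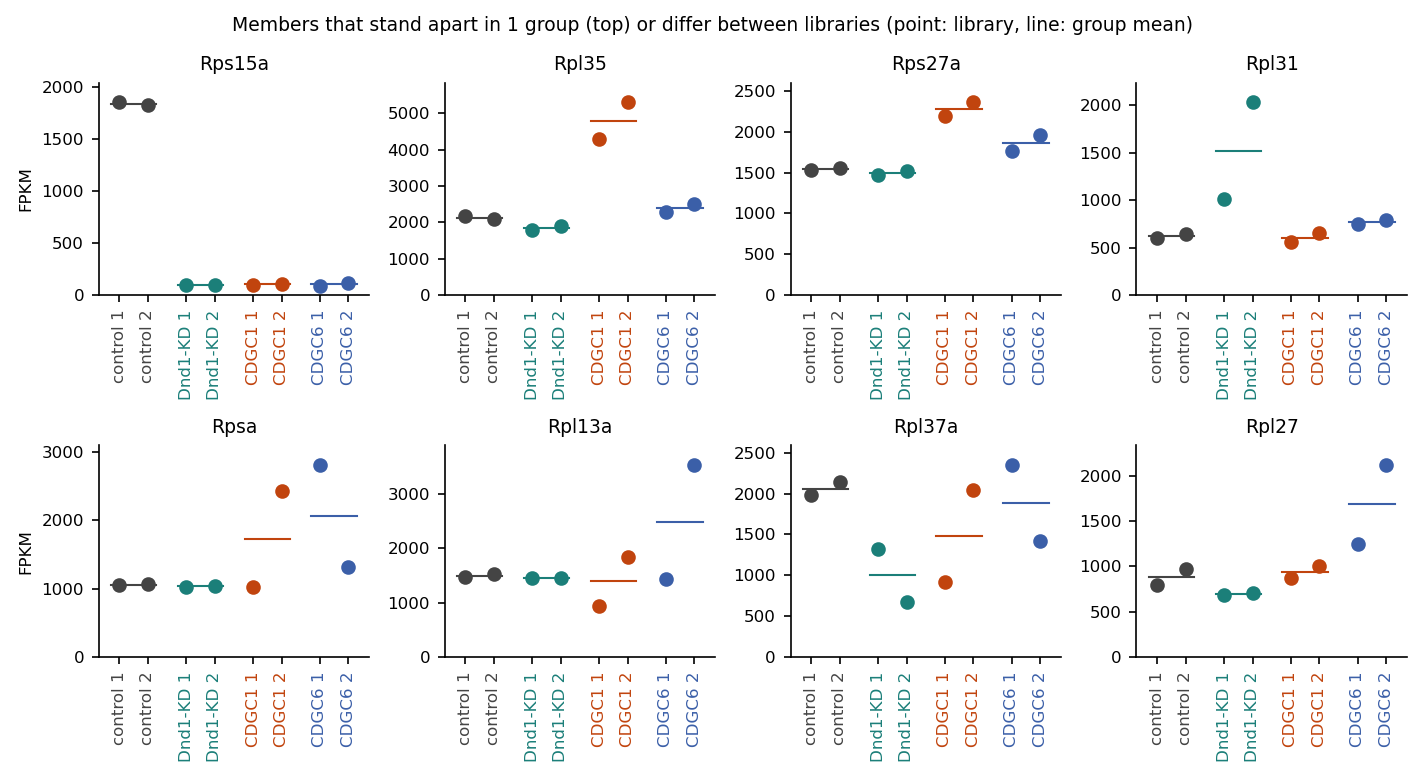
FPKM by library for 8 members (points, with the group mean as a line, axes from 0). Rps15a is high in both control libraries and near 100 elsewhere, Rpl35 and Rps27a are highest in CDGC1, and Rpl31, Rpsa, Rpl13a, Rpl37a and Rpl27 differ between the 2 libraries of at least 1 group.

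Entries joined with another gene were found for 17 members. In 4 of them the partner was a small RNA gene (among them Rpl13a, Rps21 and Rpsa). In the other 13 it was another gene, and the pair was tested as 1 unit, among them Rpl17 with BC031181, Rpl18 with Dbp, Rpl23 with 1700001P01Rik, Rpl26 with Gm15772, Rpl30 with Gm12191, Rpl34 with Rpl34-ps1, Rpl3l with Msrb1, Rplp0 with Pxn, Rplp2 with Pnpla2 and Rps27 with Rps27rt. Among these 13 pairs, the joining was present in all 8 tables for Rpl26, Rpl30, Rpl34 and Rps27 and in 1 to 4 tables for the others. The intervals of the files had a median half-width of 4.26% for entries of at least 100 FPKM. In 8 entries, of Rpl10, Rpl13, Rpl9 (both CDGC6 libraries), Rplp0, Rps19 (both Dnd1-KD libraries) and Rps25, the half-width was above 50%.

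The wider pathway was read from lists of genes that build or regulate ribosomes. In Dnd1-KD cells 22 of 41 ribosome biogenesis genes fell and 1 rose, with a median difference of -0.32, among them Ncl, the gene of nucleolin (264 and 273 against 386 and 384 FPKM, log2 difference -0.52, adjusted p = 0.0021), and Nop10 and Nhp2 of the H/ACA snoRNA particle (61.7 and 56.1 against 112 and 113 FPKM, log2 difference -0.92, adjusted p = 0.0022; 172 and 175 against 281 and 291 FPKM, log2 difference -0.72, adjusted p = 0.0028). Of 20 genes of RNA polymerase I and III and rDNA transcription 4 fell and 1 rose, with Polr1b, a subunit of polymerase I, at 23.8 and 20.1 against 36.3 and 35.0 FPKM, log2 difference -0.68, adjusted p = 0.0053. Of 20 translation factors and other genes with TOP mRNAs 7 fell and 1 rose, with Eef1d, a subunit of elongation factor 1, at 134 and 124 against 226 and 230.4 FPKM, log2 difference -0.82, adjusted p = 0.00085. Of 76 mitochondrial ribosomal protein genes tested 26 fell and 3 rose, while 15 rose and 6 fell in CDGC1 and 2 rose and 1 fell in CDGC6. Of all units 15.5% fell and 20.7% rose in Dnd1-KD. In CDGC1 23.5% of all units rose and 26.9% fell, and in CDGC6 8.43% rose and 10.2% fell. The mitochondrial ribosomal protein genes were called less often than this in both derived lines.

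In CDGC6, where the ribosomal proteins were shifted upwards, 4 of 41 biogenesis genes rose and 3 fell, with a median of -0.02. These counts are near the 8.43% and 10.2% of all units. Nop2, a ribosomal RNA methyltransferase, fell (74.7 and 77.4 against 101 and 102 FPKM, log2 difference -0.41, adjusted p = 0.013), and so did Utp20 (32.6 and 36.7 against 47.7 and 47.3 FPKM, log2 difference -0.44, adjusted p = 0.014). Of the polymerase I and III genes 3 fell, while 2 of the 20 TOP genes rose, elongation factor Eef2 (1427 and 1375 against 1102 and 1139 FPKM, log2 difference 0.32, adjusted p = 0.017) and Naca, tested with Prim1 (856 and 946 against 718 and 729 FPKM, log2 difference 0.31, adjusted p = 0.03). In CDGC1, where 23.5% of all units rose and 26.9% fell, 9 of 41 biogenesis genes rose and 5 fell, with Npm1, the gene of nucleophosmin, at 4143 and 4349 against 2830.1 and 2858 FPKM, log2 difference 0.58, adjusted p = 0.0012. Of the 20 TOP genes 5 rose and 3 fell, a share of rises near that of all units, with Eef2 at 1714 and 1759 against 1102 and 1139 FPKM, log2 difference 0.63, adjusted p = 0.00034 and the intermediate filament gene Vim at 899 and 702 against 112 and 132 FPKM, log2 difference 2.70, adjusted p = 5.1e-05. Of the polymerase I and III genes 8 fell and 1 rose. Set against CDGC6, 11 of the 41 biogenesis genes were higher in CDGC1 and 1 was lower, with a median of -0.03, where 23% and 24.1% of all units were higher and lower. Of the 6 remaining ribosome-associated genes tested, Gnb2l1, which encodes the 40S protein Rack1, was higher in CDGC1 than in CDGC6 (2125 and 1990.1 against 1452 and 1478 FPKM, log2 difference 0.49, adjusted p = 0.0022), and Fau was lower (log2 difference -0.32, adjusted p = 0.048).

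Single genes among the regulators are given by the rule for named genes. Larp1, which binds TOP mRNAs, was at 78.4 and 77.4 FPKM in control, 61.2 and 57.0 in Dnd1-KD, 150 and 156 in CDGC1 and 94.0 and 92.8 in CDGC6, with differences from control of -0.39, 0.96 and 0.26 (adjusted p = 0.0058, 7.7e-05 and 0.036). Mycn, a transcription factor of ribosome genes, was lower in Dnd1-KD (57.8 and 50.1 against 106 and 106 FPKM, log2 difference -0.96, adjusted p = 0.0029) and in CDGC1 (38.8 and 31.6 against 106 and 106 FPKM, log2 difference -1.56, adjusted p = 0.00013). Of 21 genes of the mTOR, LARP1 and MYC list 5 rose and 3 fell in Dnd1-KD (20.7% and 15.5% of all units), 1 rose and 5 fell in CDGC1 (23.5% and 26.9% of all units), and 2 rose in CDGC6 (8.43% of all units). Except for the rises in CDGC1, which were fewer, these counts are near the shares of all units. Mdm2, the target of free Rpl5 and Rpl11, was at 97.9 and 95.5 FPKM in control, 218 and 244 in Dnd1-KD, 77.6 and 68.0 in CDGC1 and 34.7 and 39.4 in CDGC6, with differences from control of 1.25, -0.41 and -1.36 (adjusted p = 0.0011, 0.016 and 0.0012). Of the 5 genes of the p53 and Mdm2 list 3 rose and 1 fell in Dnd1-KD (20.7% and 15.5% of all units). In CDGC1 1 rose and 2 fell (23.5% and 26.9% of all units), and in CDGC6 2 fell (10.2% of all units). The rise in CDGC1 and the fall in Dnd1-KD were near these shares.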

How the data were processed

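RNA of 8 libraries was measured, 2 for each of 4 groups, as the labels give them. Per the labels, total RNA was taken with RNeasy kits and TruSeq RNA v2 libraries were made. The deposited values are FPKM with an interval, per the file headers from Cufflinks gene tables of 1 library each. TopHat2, Bowtie, Cuffdiff, Cufflinks and the build mm10 are named, without version or role, per the submitters' processing notes.

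Symbols joined in any table were treated as 1 unit in all 8 libraries and FPKM was summed. Small RNA genes and entries without a name were left out of tests. The 11901 units that reached 1 FPKM in 2 or more libraries entered limma (version 3.58.1, R 4.3.3) on log2(FPKM + 1), with a mean for each group, all 8 libraries and a two-sided moderated test with a mean-variance trend. This scale understates changes of low genes. P-values were adjusted by Benjamini-Hochberg over all units with a threshold of 0.05, in 4 comparisons, 3 of which share the control libraries. The script was tested on simulated data. The genes, lists and rules were chosen with earlier results of these data known. Named are the paralogues and their parents, 8 members with special roles, per comparison the 3 largest rises and falls that passed with no library at 0 and no overlap of libraries, the 3 highest and lowest members, members joined or listed at 0, and up to 3 genes of each related list with the smallest p. Rps18, Rpl10a, Rps7 and Rps28, which complete small counts, and the members uneven within a group were chosen after their values were seen. The tables give no counts, and precision is limited by 2 libraries a group. Alternatives covered the pseudocount, filter, scaling, fit, entries and each library left out. Sequences come from RefSeq (GRCm38.p6) and GENCODE vM21. Python 3.11.15 with pandas 2.3.3 and matplotlib 3.10.9 was used. Some genes that the rule names are not reported here.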

Additional observations from a re-analysis of the deposited data

Results flagged for a closer look

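The change against control differed between the derived lines for 15 of the members named, by the CDGC1 minus CDGC6 contrast of the limma fit (2 libraries a group, adjusted over all units). The differences were -8.00 for Rps4l, -3.96 for Rpl10l and -3.90 for Rpl39l, the 3 copies near 0 in CDGC1. They were -0.80 for Rpl27, -0.46 for Rplp2, -0.40 for Rpl22, -0.39 for Rpl11, -0.36 for Rps4x, -0.34 for Rpl3, -0.33 for Rps25, -0.30 for Rps6, -0.28 for Rplp1 and -0.22 for Rpl5. The difference was 1.0 for Rpl35 and 0.29 for Rps27a, both higher in CDGC1.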

How the results depend on the processing

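Of 42 calls of named members, 12 passed in every alternative run: Rps4l, Rpl39l, Rpl10l and Rpl35 in CDGC1 against both control and CDGC6, Rps27a in CDGC1 against control, and Rps15a in Dnd1-KD, CDGC1 and CDGC6 against control. None changed direction, and of 753 alternative values 158 no longer passed. For Dnd1-KD against control, where 21 members were called, 8 were called with no filter, 11 after quantile normalization and 13 after scaling to named FPKM, and 2 to 7 with 1 library left out. For CDGC6 against control (11 called) the counts were 3 with no filter, 4 after quantile normalization, 6 with only the compared groups, 6 without trend and 7 over the 56 members with the same entry bounds, an alternative added after the data were seen, and 1 to 13 with 1 library left out. For CDGC1 against CDGC6 (34 called) they were 19 with no filter, 17 after quantile normalization and 4 with only the compared groups, and 14 to 38 with 1 library left out. For CDGC1 against control (13 called) no setting but the left-out libraries, at 7 to 13, moved the count by over 1.5 times. With no filter more units at or near 0 entered the fit, and with a library left out a group had 1 library, assumed to vary like the others. The cause of the other changes was not tested. No scaling moved the median of all units by over 0.1.

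With the replicate number as a block, 19, 17, 15 and 40 members were called in Dnd1-KD, CDGC1 and CDGC6 against control and in CDGC1 against CDGC6. Deviations of same-numbered libraries correlated between -0.077 and 0.144, so the numbers were not taken to pair the samples.

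The share of the 83 genes was 19.1%, 17.2%, 20.4% and 22.0% in control, Dnd1-KD, CDGC1 and CDGC6 with small RNA genes in the total, 2.92%, 2.75%, 3.12% and 4.20% with all entries in the total, and 21.7%, 20.6%, 21.7% and 23.8% without the 9 uneven members (added after the data were seen). The tract was found in 13 in place of 21 of 62 members with the C exactly at the start. With 1 entry per member in every table, taking the highest entry could not change a paralogue ratio.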
